A study of Mus musculus with 24 samples.

Results

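The collagen genes of mouse heart were followed across infarction and across genotypes with lower or higher activity of phosphoinositide 3-kinase (PI3K). Members were all genes on the array whose symbol is Col, digits, a and digits, each represented by its brightest probe set over the 24 arrays. The rule found 42 such genes of 18193 named on the array, and 36 of the 42 were bright enough to be tested beside 14763 genes in all. The 6 that were not tested were *Col2a1*, *Col24a1*, *Col9a2*, *Col9a3*, *Col10a1* and *Col17a1*.

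RNA came from hearts of FVB/N mice, 4 arrays in each of 6 groups, and every animal had been operated on at 4 months of age, 8 weeks before the heart was taken. The groups were caPI3K mice, transgenic with increased PI3K activity, after myocardial infarction (caPI3K MI) and after a sham operation (caPI3K sham). Next came dnPI3K mice, a heart-specific transgenic line with reduced PI3K activity, after infarction (dnPI3K MI) and after sham (dnPI3K sham). Nontransgenic mice were measured after infarction (Ntg MI) and after sham (Ntg sham). Which promoter drives each transgene, and the sex of the mice, the sources used here do not give. Hearts were homogenized one by one, yet no label says that every array is a different mouse. The p-values therefore describe variation among these arrays, part of which may be technical. On the caPI3K MI samples 1 tag carries the name caPI3K-sham, while titles and texts say MI, which was followed.

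Collagens are secreted proteins built of chains wound into a triple helix. Fibrillar collagens form the tension-bearing cables of a scar, network-forming collagens make up basement membranes, beaded filaments link cells to the surrounding matrix, and fibril-associated collagens with interrupted triple helices (FACITs) coat the fibrils. In heart, fibroblasts make most of the fibrillar collagen, and an infarct heals into a scar rich in types I and III.

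Signal was deposited as MAS5 intensity, scaled alike on each array, and values below are log2(signal + 11.2) unless named as a signal. A change is a difference of such values, MI minus sham or the first named group minus the second, with its standard error (SE), and it understates the change of dim genes. Adjusted p-values are from limma with Benjamini-Hochberg adjustment over all 14763 genes, and a gene is said to rise or fall when the adjusted p is below 0.05. Levels of different genes are not set against each other, since a probe set's brightness also depends on its probes. *Myh6*, the heart muscle myosin, lay at 15.58 to 16.25 on every array, and it fell after MI over the 3 genotypes.

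Some arrays stood apart. Ntg sham replicate 4 held matrix values in the range of infarcted hearts. *Postn*, a matricellular gene of activated fibroblasts, read 13.90, 13.71, 13.61 and 13.32 in Ntg MI, against 11.04, 11.70, 11.21 and 13.51 in Ntg sham, the last of these being replicate 4. Of the 20 collagens that rose over the 3 genotypes, 17 had their highest Ntg sham value on replicate 4. Replicate 4 lay at or above the lowest Ntg MI array for 17 of the 20. Over all 36 tested collagens these counts were 19 and 30, and the second was not taken over all genes. Over all tested genes, replicate 4 was the highest Ntg sham array for 31.2%. Replicates 1 to 3 of caPI3K sham carried Y-linked signal and *Xist* at 6.77 to 7.08, whereas *Xist* lay at 12.65 or higher on the other 21 arrays. Median signal was 102 to 118 on 23 arrays and 150 on dnPI3K MI replicate 1. The main collagen counts are given with and without these arrays. Changes of single pathway and marker genes are given with all arrays only.

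Collagen genes rose after infarction in all 3 genotypes. With all arrays the number that fell was 0 in each. Of all tested genes, 0.257% fell in caPI3K, 5.18% in dnPI3K and 0.0948% in Ntg hearts, and 6.76% over the genotypes. In caPI3K hearts 5 of 36 tested collagens rose (0.853% of all tested genes rose), in dnPI3K hearts 17 (4.19%) and in Ntg hearts 8 (0.677%). Averaged over the genotypes 20 of 36 rose, against 6.81% of all tested genes. The median change of the 36 was 0.42 in caPI3K, 0.83 in dnPI3K and 0.57 in Ntg hearts, with the median of all tested genes between -0.0049 and 0.0103. The genes *Col5a2*, *Col6a1*, *Col14a1* and *Col8a1* rose in each genotype with all arrays in 1 fit. Without dnPI3K MI replicate 1, 17 collagens rose in dnPI3K hearts (4.15% of all tested genes) and 1, *Col11a2*, fell (4.67%). The caPI3K calls became 0 without the caPI3K sham arrays with Y-linked signal, and the Ntg calls became 0 without the sham arrays numbered 415 to 418 or with the fit on the compared groups alone. The arrays of MI and sham did not overlap for 15 of the 36 in caPI3K hearts (5.09% of all tested genes, MI higher), 18 in dnPI3K hearts (6.34%) and 2 in Ntg hearts (2.22%), the 2 being *Col4a3* and *Col4a4*. With MI lower, 0 collagens were separate in any genotype, against 4.27% of all tested genes in caPI3K, 7.1% in dnPI3K and 2.5% in Ntg hearts.

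**Figure D1:**
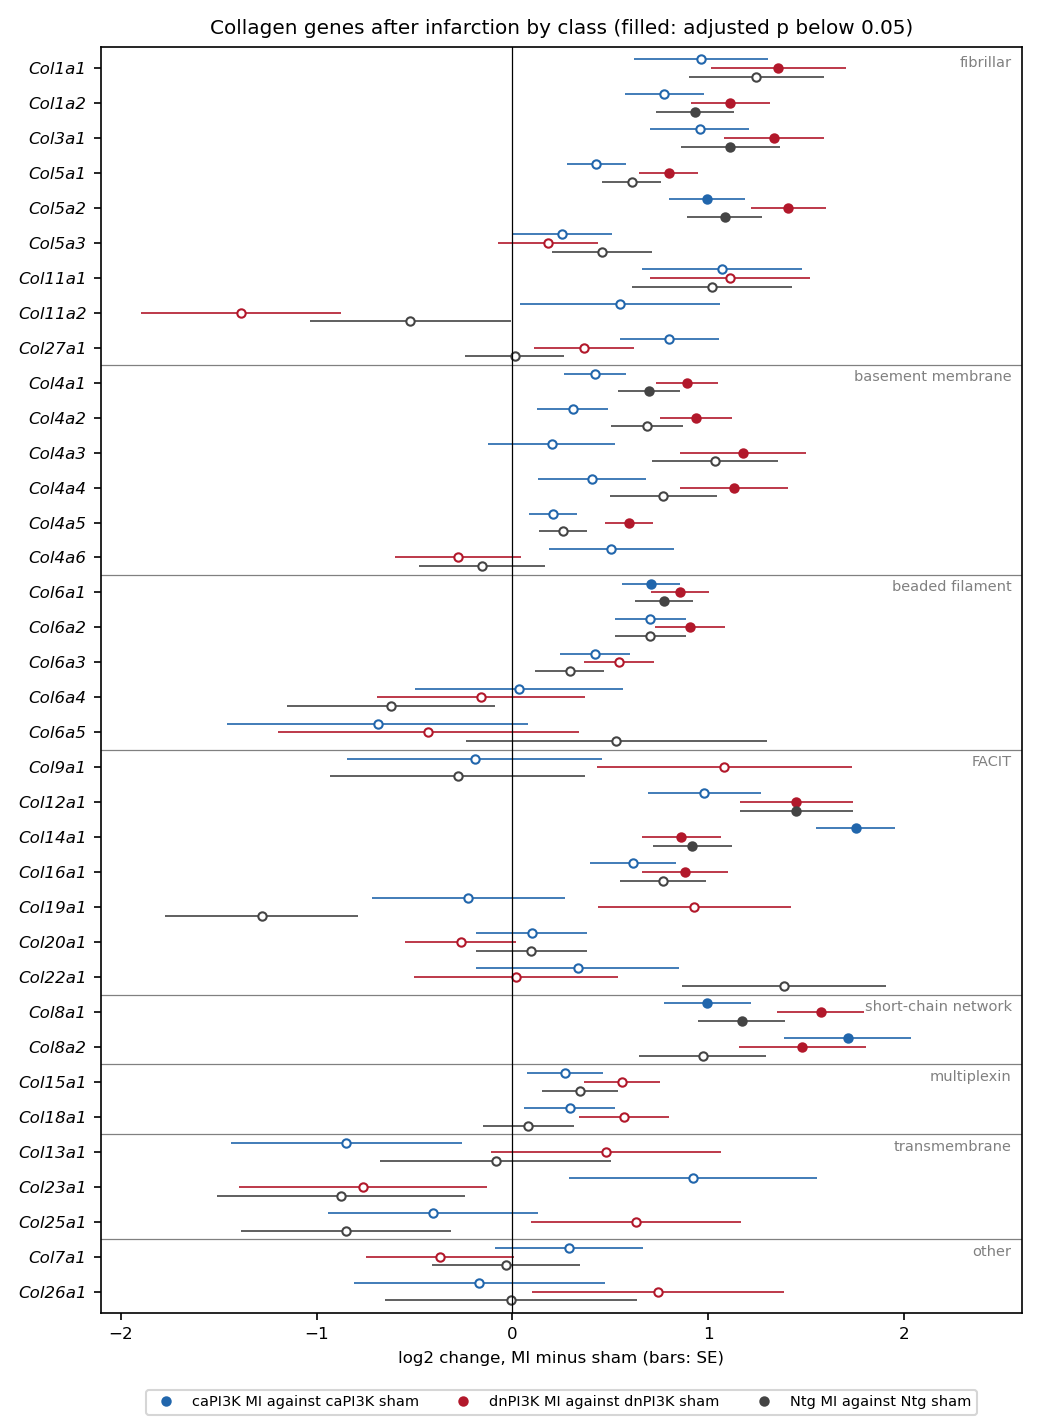
Log2 change after infarction (x axis, MI minus sham) for each of the 36 tested collagen genes (y axis), by class. Points are caPI3K (blue), dnPI3K (red) and Ntg (grey) hearts, bars are SE, and filled points have an adjusted p below 0.05. The filled points all lie to the right of 0, between 0.60 and 1.75.

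The brightness of the probe set went with whether a change passed the test. All 12 collagens with a mean signal of 1000 or more rose over the 3 genotypes, by 0.35 to 1.25 with SE of 0.07 to 0.15. Of the 10 between 200 and 1000, 5 rose. Of the 20 below 200, 14 were tested and 3 rose (*Col8a2*, *Col4a3* and *Col11a1*), and SE there were 0.19 to 0.44. Among the dim genes, a change that misses the threshold therefore leaves wide intervals, such as -0.05 to 1.21 for *Col22a1*, a FACIT of tissue junctions.

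**Figure D2:**
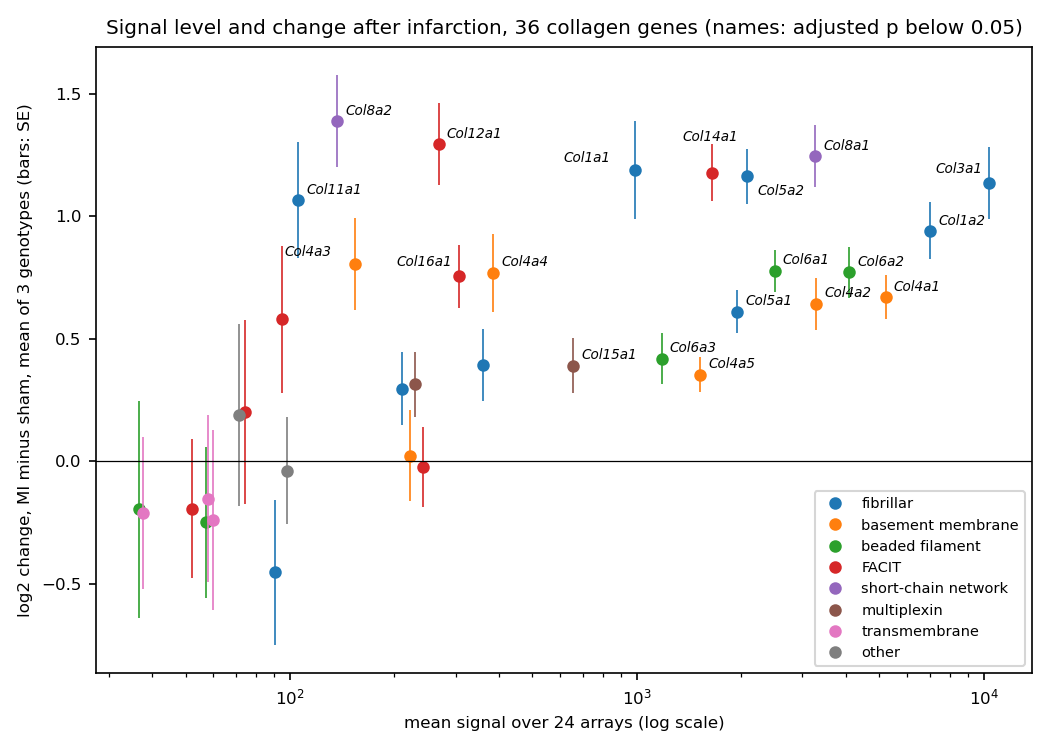
Mean signal over 24 arrays (x axis, log scale) against the log2 change after infarction over the 3 genotypes (y axis, bars SE) for the 36 tested collagen genes, coloured by class. Named genes have an adjusted p below 0.05, and the 12 genes with a mean signal of 1000 or more are all named.

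The fibrillar class held 9 tested genes, of which 6 rose over the 3 genotypes. They were both chains of type I, the only chain of type III, *Col5a1* and *Col5a2* of type V, and *Col11a1*. In caPI3K hearts 1 of the 9 rose, in dnPI3K hearts 5 and in Ntg hearts 3. *Col1a1* and *Col1a2* encode the chains of type I collagen, the main scar collagen. In caPI3K hearts *Col1a1* read 10.08, 10.30, 10.42 and 10.86 after MI, against 9.57, 9.33, 9.84 and 9.06 after sham. In dnPI3K hearts *Col1a1* read 10.68, 10.59, 10.00 and 10.53 after MI, against 8.56, 8.50, 9.47 and 9.84 after sham. In Ntg hearts *Col1a1* read 10.40, 10.12, 10.41 and 10.06 after MI, against 9.16, 8.82, 7.68 and 10.33 after sham. Every caPI3K MI and dnPI3K MI array lay above every sham array of its genotype, and in Ntg hearts only sham replicate 4 reached the MI range. For *Col1a1*, the log2 MI change was 0.96 in caPI3K hearts (adjusted p = 0.202), 1.36 in dnPI3K hearts (adjusted p = 0.0113) and 1.25 in Ntg hearts (adjusted p = 0.09), each with an SE of 0.34. *Col1a1* rose by 1.19 over the 3 genotypes (SE 0.20, 2.28-fold, adjusted p = 0.000142). A dimmer second probe set of *Col1a1* gave 0.56 in caPI3K, 1.40 in dnPI3K and 1.34 in Ntg hearts, each with an SE of 0.32.

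The partner chain *Col1a2* showed the same separation of arrays. In caPI3K hearts *Col1a2* read 12.95, 13.04, 13.04 and 13.14 after MI, against 12.43, 12.09, 12.56 and 12.00 after sham. In dnPI3K hearts *Col1a2* read 13.10, 13.44, 13.14 and 13.65 after MI, against 11.96, 12.01, 12.63 and 12.29 after sham. In Ntg hearts *Col1a2* read 13.20, 12.998, 13.15 and 12.86 after MI, against 11.74, 11.91, 11.76 and 13.06 after sham. Again only Ntg sham replicate 4 lay among the infarcted hearts of its genotype. For *Col1a2*, the log2 MI change was 0.78 in caPI3K hearts (adjusted p = 0.0531), 1.11 in dnPI3K hearts (adjusted p = 0.000727) and 0.93 in Ntg hearts (adjusted p = 0.0212), each with an SE of 0.20. *Col1a2* rose by 0.94 over the 3 genotypes (SE 0.12, 1.92-fold, adjusted p = 2.82e-06). *Col3a1* encodes the chain of type III collagen, which joins type I in mixed fibrils. *Col3a1* values in caPI3K hearts were 13.72, 13.26, 13.86 and 13.75 after MI, against 12.71, 12.40, 13.01 and 12.64 after sham. *Col3a1* values in dnPI3K hearts were 13.76, 14.15, 14.02 and 14.08 after MI, against 12.28, 12.09, 13.32 and 12.96 after sham. *Col3a1* values in Ntg hearts were 13.78, 13.58, 13.99 and 13.15 after MI, against 11.99, 12.53, 12.08 and 13.47 after sham. The MI and sham arrays did not overlap in either transgenic line, and Ntg sham replicate 4 lay above the lowest Ntg MI array. For *Col3a1*, the log2 MI change was 0.96 in caPI3K hearts (adjusted p = 0.0602), 1.34 in dnPI3K hearts (adjusted p = 0.00111) and 1.11 in Ntg hearts (adjusted p = 0.0295), each with an SE of 0.25. *Col3a1* rose by 1.13 over the 3 genotypes (SE 0.15, 2.2-fold, adjusted p = 5.49e-06).

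The stretches before the RefSeq starts of *Col1a2* and *Col3a1* are shown because these genes rose side by side, with capitals marking matches on either strand to the letters CCAAT. Capitals also mark TATAAA, the TATA box letters. The GC box letters GGGCGG are marked likewise. *Col1a2* lies on the plus strand, and its 250 bases before the start are chr6:4505368-4505617 in GRCm38.p6 (RefSeq). *Col3a1* is also on the plus strand, at chr1:45311288-45311537 of the same build.
Col1a2: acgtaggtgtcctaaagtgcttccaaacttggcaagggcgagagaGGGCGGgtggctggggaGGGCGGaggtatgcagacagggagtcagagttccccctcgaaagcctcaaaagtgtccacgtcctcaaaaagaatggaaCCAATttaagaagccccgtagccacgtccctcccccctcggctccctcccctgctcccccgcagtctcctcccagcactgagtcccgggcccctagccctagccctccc
Col3a1: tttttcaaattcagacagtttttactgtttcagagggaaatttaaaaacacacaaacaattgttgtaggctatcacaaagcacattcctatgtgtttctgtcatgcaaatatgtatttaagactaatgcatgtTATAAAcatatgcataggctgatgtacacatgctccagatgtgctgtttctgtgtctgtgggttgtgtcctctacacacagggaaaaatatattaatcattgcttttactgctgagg
In *Col1a2* the window held 1 CCAAT, 109 bases before the start, and 2 GGGCGG. *Col3a1* held 1 TATAAA, 117 bases before the start, and neither of the other motifs. Over 32851 RefSeq windows of this length, CCAAT or its reverse complement stood in 33.8%, TATAAA in 12.4% and GGGCGG in 32.7%. Such windows were found for 33 of the 42 members, and of these 33 genes CCAAT was present in 13, TATAAA in 5 and GGGCGG in 20. The matches describe letters only and show no binding.

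Type V collagen sits inside type I fibrils and sets their diameter, and its chains *Col5a1* and *Col5a2* both rose. In caPI3K hearts *Col5a2* read 11.34, 11.17, 11.31 and 11.51 after MI, against 10.48, 10.14, 10.60 and 10.14 after sham. In dnPI3K hearts *Col5a2* read 11.50, 11.74, 11.62 and 11.93 after MI, against 10.20, 10.01, 10.65 and 10.29 after sham. In Ntg hearts *Col5a2* read 11.63, 11.38, 11.40 and 11.10 after MI, against 9.83, 10.21, 9.96 and 11.18 after sham. As with type I, 1 Ntg sham array, replicate 4, fell within the Ntg MI range and no other arrays crossed. For *Col5a2*, the log2 MI change was 0.99 in caPI3K hearts (adjusted p = 0.0071), 1.41 in dnPI3K hearts (adjusted p = 8.58e-05) and 1.08 in Ntg hearts (adjusted p = 0.0054), each with an SE of 0.19. *Col5a2* rose by 1.16 over the 3 genotypes (SE 0.11, 2.24-fold, adjusted p = 1.14e-07). *Col5a1* moved by smaller steps. *Col5a1* values in caPI3K hearts were 11.23, 10.93, 11.12 and 11.37 after MI, against 10.77, 10.55, 10.87 and 10.74 after sham. *Col5a1* values in dnPI3K hearts were 10.97, 11.32, 11.42 and 11.41 after MI, against 10.29, 10.36, 10.62 and 10.66 after sham. *Col5a1* values in Ntg hearts were 11.14, 11.17, 11.25 and 10.93 after MI, against 10.25, 10.29, 10.33 and 11.18 after sham. Its groups were separate in both transgenic lines. For *Col5a1*, the log2 MI change was 0.43 in caPI3K hearts (adjusted p = 0.194), 0.80 in dnPI3K hearts (adjusted p = 0.00114) and 0.61 in Ntg hearts (adjusted p = 0.0544), each with an SE of 0.15. *Col5a1* rose by 0.61 over the 3 genotypes (SE 0.09, 1.53-fold, adjusted p = 2.16e-05). *Col5a3*, the third type V chain, changed by 0.30 over the genotypes (SE 0.15, adjusted p = 0.217).

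*Col11a1*, a fibril chain best known from cartilage, was dim but rose over the genotypes. In caPI3K hearts *Col11a1* read 7.10, 6.63, 6.47 and 7.30 after MI, against 5.76, 5.11, 6.37 and 5.98 after sham. In dnPI3K hearts *Col11a1* read 7.47, 7.10, 6.82 and 7.41 after MI, against 7.23, 4.65, 6.48 and 5.99 after sham. In Ntg hearts *Col11a1* read 7.47, 7.68, 7.68 and 7.39 after MI, against 7.41, 6.15, 6.24 and 6.36 after sham. With the probe set used it was called in no single genotype, and dnPI3K sham replicate 1 and Ntg sham replicate 1 lay among the MI arrays. For *Col11a1*, the log2 MI change was 1.07 in caPI3K hearts (adjusted p = 0.243), 1.11 in dnPI3K hearts (adjusted p = 0.0914) and 1.02 in Ntg hearts (adjusted p = 0.279), each with an SE of 0.41. *Col11a1* rose by 1.07 over the 3 genotypes (SE 0.24, 2.1-fold, adjusted p = 0.00251). A dimmer second probe set of *Col11a1* was less even, at 0.51 in caPI3K, 2.73 in dnPI3K and 1.80 in Ntg hearts (SE 0.48 each). *Col11a2*, its partner in cartilage, gave -0.45 (SE 0.30, adjusted p = 0.379), and *Col27a1*, another cartilage fibril chain, 0.39 (SE 0.15, adjusted p = 0.078). By genotype *Col11a2* changed by 0.55 in caPI3K, -1.39 in dnPI3K and -0.52 in Ntg hearts.

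**Figure D3:**
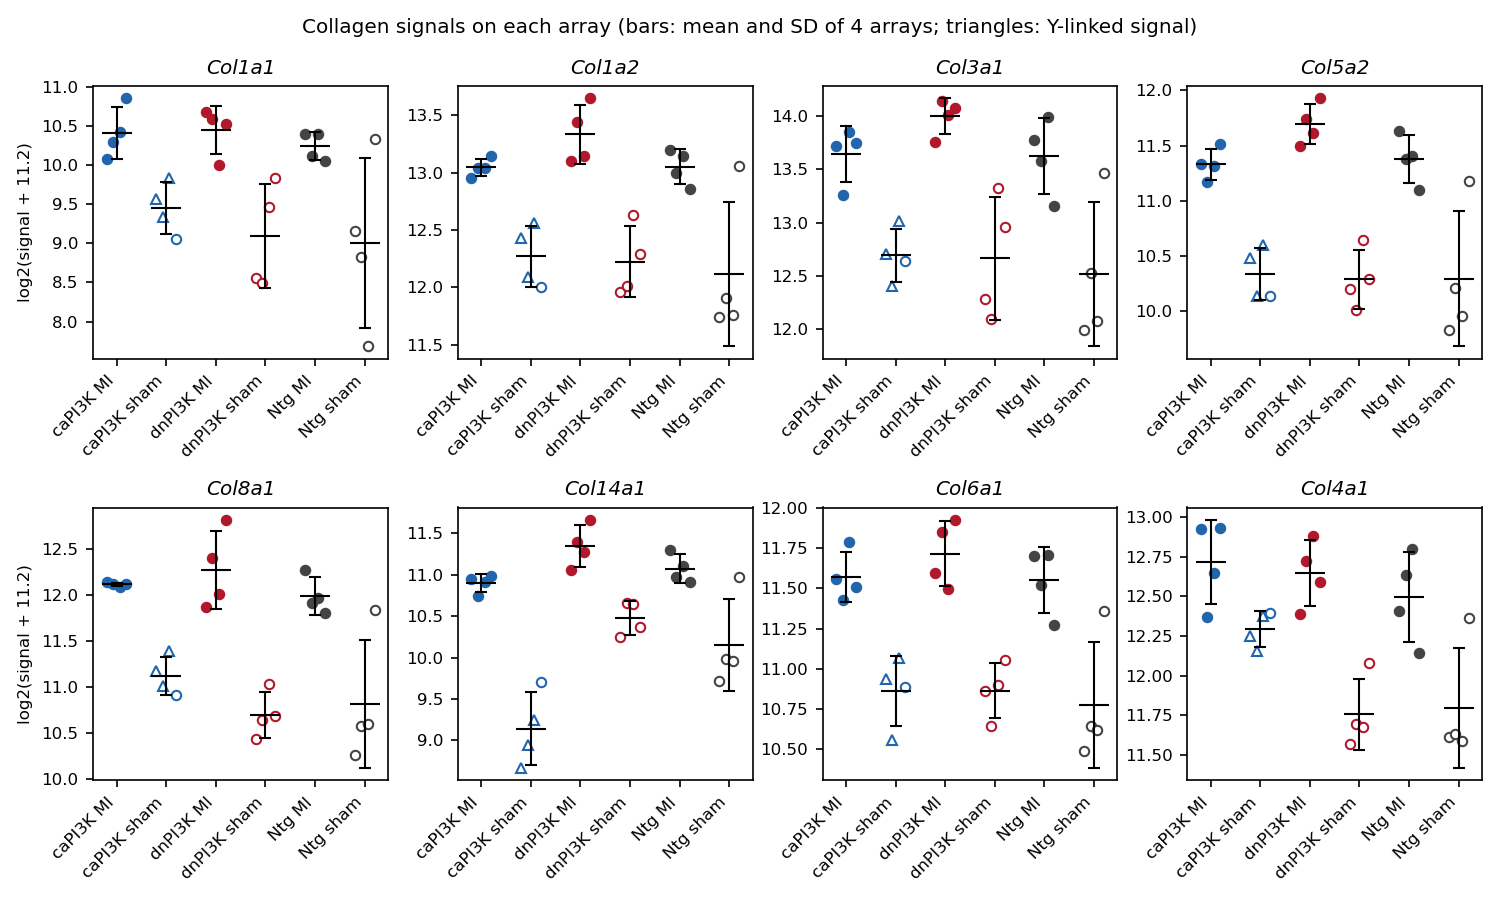
Log2(signal + 11.2) (y axis) of 8 collagen genes on each array by group (x axis). Filled points are MI and open points sham arrays, triangles carry Y-linked signal, and bars are the mean and SD of 4 arrays. In all 8 panels the highest open Ntg point is replicate 4, and it lies at or above the lowest Ntg MI point.

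The basement membrane class is type IV collagen, with 6 tested chains. *Col4a1* and *Col4a2* form the network present in basement membranes throughout the body, including those around heart muscle cells and capillaries. *Col4a3*, *Col4a4* and *Col4a5* form a second network known from kidney filters, and *Col4a6* pairs with *Col4a5* in other tissues. Over the 3 genotypes the first 5 rose and *Col4a6* gave 0.02 (SE 0.18, adjusted p = 0.962). In caPI3K hearts 0 of the 6 passed the test, in dnPI3K hearts 5 and in Ntg hearts 1. At an unadjusted p below 0.05, limma would call *Col4a1* alone in caPI3K hearts.

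In caPI3K hearts *Col4a1* read 12.92, 12.37, 12.64 and 12.93 after MI, against 12.25, 12.15, 12.38 and 12.39 after sham. In dnPI3K hearts *Col4a1* read 12.39, 12.72, 12.88 and 12.59 after MI, against 11.57, 11.70, 11.68 and 12.08 after sham. In Ntg hearts *Col4a1* read 12.41, 12.64, 12.80 and 12.14 after MI, against 11.61, 11.63, 11.59 and 12.37 after sham. The caPI3K sham arrays lay above all 4 dnPI3K sham arrays and above 3 of the 4 Ntg sham arrays, and 2 of them reached the lowest caPI3K MI value. For *Col4a1*, the log2 MI change was 0.42 in caPI3K hearts (adjusted p = 0.231), 0.89 in dnPI3K hearts (adjusted p = 0.000671) and 0.70 in Ntg hearts (adjusted p = 0.0295), each with an SE of 0.16. A second *Col4a1* probe set gave 0.42 in caPI3K, 0.60 in dnPI3K and 0.31 in Ntg hearts, each with an SE of 0.17. With the probe set used, *Col4a1* rose by 0.67 over the 3 genotypes (SE 0.09, 1.59-fold, adjusted p = 1.13e-05). *Col4a2* followed the same pattern. *Col4a2* values in caPI3K hearts were 11.91, 11.64, 12.01 and 12.21 after MI, against 11.66, 11.53, 11.64 and 11.71 after sham. *Col4a2* values in dnPI3K hearts were 11.88, 11.87, 12.14 and 12.09 after MI, against 10.95, 10.81, 10.96 and 11.52 after sham. *Col4a2* values in Ntg hearts were 11.63, 12.11, 12.23 and 11.57 after MI, against 10.88, 10.93, 11.03 and 11.95 after sham. In dnPI3K hearts the groups stayed apart, and in caPI3K hearts 2 sham arrays lay at or above the lowest MI array. For *Col4a2*, the log2 MI change was 0.31 in caPI3K hearts (adjusted p = 0.545), 0.94 in dnPI3K hearts (adjusted p = 0.00144) and 0.69 in Ntg hearts (adjusted p = 0.0772), each with an SE of 0.18. *Col4a2* rose by 0.64 over the 3 genotypes (SE 0.11, 1.56-fold, adjusted p = 0.000123).

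*Col4a1* and *Col4a2* are neighbours that run in opposite directions from a shared control region. In the RefSeq windows of 300 bases around their starts, *Col4a1* (chr8:11312777-11313076, minus strand) and *Col4a2* (chr8:11312555-11312854, plus strand, both GRCm38.p6) shared 78 bases. The within-array difference *Col4a1* minus *Col4a2* averaged 0.77 after MI and 0.65 after sham in caPI3K hearts, 0.65 and 0.70 in dnPI3K hearts, and 0.61 and 0.60 in Ntg hearts. Its change with MI was 0.12, -0.05 and 0.01 in that order of genotypes, with exact permutation p of 0.229, 0.686 and 0.914 (two-sided, 4 against 4 arrays, smallest possible 0.0286). *Col1a1* minus *Col1a2* changed by 0.19 in caPI3K, 0.24 in dnPI3K and 0.31 in Ntg hearts, and *Col1a1* minus *Col3a1* by 0.01, 0.02 and 0.13. None of these 9 comparisons passed (exact permutation p of 0.229 to 1, all adjusted p = 1 over the 9). The intervals are wide, since the SD of *Col1a1* minus *Col1a2* was 0.67 in Ntg sham hearts.

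The remaining type IV chains were dimmer. *Col4a3* values in caPI3K hearts were 7.27, 7.15, 7.33 and 7.09 after MI, against 6.21, 7.20, 7.25 and 7.36 after sham. *Col4a3* values in dnPI3K hearts were 8.23, 8.31, 8.05 and 8.10 after MI, against 6.60, 7.69, 6.13 and 7.55 after sham. *Col4a3* values in Ntg hearts were 7.54, 7.09, 8.03 and 7.40 after MI, against 6.84, 6.43, 6.90 and 5.77 after sham. For *Col4a3* the MI and sham arrays did not overlap in dnPI3K or in Ntg hearts, whereas 3 caPI3K sham arrays lay above the lowest caPI3K MI array. For *Col4a3*, the log2 MI change was 0.20 in caPI3K hearts (adjusted p = 0.883), 1.18 in dnPI3K hearts (adjusted p = 0.0195) and 1.03 in Ntg hearts (adjusted p = 0.153), each with an SE of 0.32. *Col4a3* rose by 0.80 over the 3 genotypes (SE 0.19, 1.75-fold, adjusted p = 0.00394). *Col4a4* gave a like picture. In caPI3K hearts *Col4a4* read 8.96, 8.03, 8.55 and 8.79 after MI, against 8.76, 7.95, 8.22 and 7.78 after sham. In dnPI3K hearts *Col4a4* read 9.14, 9.61, 8.86 and 9.80 after MI, against 7.41, 8.77, 8.05 and 8.65 after sham. In Ntg hearts *Col4a4* read 8.83, 8.45, 9.10 and 8.60 after MI, against 7.78, 8.44, 7.66 and 8.02 after sham. Its Ntg and dnPI3K groups were separate, and 2 caPI3K sham arrays crossed the lowest MI array. For *Col4a4*, the log2 MI change was 0.41 in caPI3K hearts (adjusted p = 0.618), 1.13 in dnPI3K hearts (adjusted p = 0.00845) and 0.77 in Ntg hearts (adjusted p = 0.219), each with an SE of 0.27. *Col4a4* rose by 0.77 over the 3 genotypes (SE 0.16, 1.7-fold, adjusted p = 0.00127). *Col4a5*, which is X-linked, moved least of the 5. *Col4a5* values in caPI3K hearts were 10.61, 10.61, 10.78 and 10.88 after MI, against 10.43, 10.53, 10.52 and 10.58 after sham. *Col4a5* values in dnPI3K hearts were 10.56, 11.19, 10.81 and 10.77 after MI, against 10.21, 10.30, 10.19 and 10.25 after sham. *Col4a5* values in Ntg hearts were 10.70, 10.45, 10.74 and 10.65 after MI, against 10.03, 10.31, 10.36 and 10.80 after sham. Here Ntg sham replicate 4 had the highest value of all 8 Ntg arrays. For *Col4a5*, the log2 MI change was 0.21 in caPI3K hearts (adjusted p = 0.546), 0.60 in dnPI3K hearts (adjusted p = 0.00238) and 0.26 in Ntg hearts (adjusted p = 0.404), each with an SE of 0.12. *Col4a5* rose by 0.35 over the 3 genotypes (SE 0.07, 1.28-fold, adjusted p = 0.00103).

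Type VI collagen builds beaded filaments next to basement membranes, and loss of its chains is known to cause muscle disease. Its 3 classical chains *Col6a1*, *Col6a2* and *Col6a3* rose over the genotypes, while *Col6a4* gave -0.25 (SE 0.31, adjusted p = 0.694) and *Col6a5* -0.20 (SE 0.44, adjusted p = 0.849). In caPI3K hearts 1 of 5 tested members rose, in dnPI3K hearts 2 and in Ntg hearts 1. In caPI3K hearts *Col6a1* read 11.56, 11.43, 11.79 and 11.51 after MI, against 10.94, 10.56, 11.07 and 10.89 after sham. In dnPI3K hearts *Col6a1* read 11.60, 11.85, 11.50 and 11.93 after MI, against 10.86, 10.64, 10.90 and 11.05 after sham. In Ntg hearts *Col6a1* read 11.70, 11.52, 11.71 and 11.27 after MI, against 10.49, 10.64, 10.62 and 11.36 after sham. Among Ntg sham arrays, replicate 4 alone reached the MI range. For *Col6a1*, the log2 MI change was 0.71 in caPI3K hearts (adjusted p = 0.013), 0.85 in dnPI3K hearts (adjusted p = 0.000516) and 0.77 in Ntg hearts (adjusted p = 0.00924), each with an SE of 0.15. *Col6a1* rose by 0.78 over the 3 genotypes (SE 0.09, 1.72-fold, adjusted p = 6.22e-07).

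*Col6a2* had similar changes but passed the test in dnPI3K hearts only. *Col6a2* values in caPI3K hearts were 12.50, 12.29, 12.38 and 12.57 after MI, against 11.83, 11.35, 11.91 and 11.83 after sham. *Col6a2* values in dnPI3K hearts were 12.30, 12.47, 12.17 and 12.58 after MI, against 11.45, 11.09, 11.49 and 11.85 after sham. *Col6a2* values in Ntg hearts were 12.16, 12.32, 12.15 and 11.78 after MI, against 11.19, 11.10, 11.13 and 12.17 after sham. Whether its changes differ between genotypes is covered by the tests of differences given further on, none of which passed. For *Col6a2*, the log2 MI change was 0.70 in caPI3K hearts (adjusted p = 0.0523), 0.91 in dnPI3K hearts (adjusted p = 0.00171) and 0.70 in Ntg hearts (adjusted p = 0.0606), each with an SE of 0.18. *Col6a2* rose by 0.77 over the 3 genotypes (SE 0.10, 1.71-fold, adjusted p = 1.02e-05). *Col6a3* was the least changed of the 3. In caPI3K hearts *Col6a3* read 10.66, 10.23, 10.60 and 10.45 after MI, against 10.11, 9.82, 10.10 and 10.23 after sham. In dnPI3K hearts *Col6a3* read 10.48, 10.58, 9.88 and 10.52 after MI, against 9.58, 9.40, 10.03 and 10.26 after sham. In Ntg hearts *Col6a3* read 10.36, 10.42, 10.62 and 9.85 after MI, against 9.96, 9.91, 9.86 and 10.35 after sham. In Ntg hearts MI replicate 4 lay just below all 4 sham arrays, and in dnPI3K hearts MI replicate 3 lay below 2 sham arrays. For *Col6a3*, the log2 MI change was 0.42 in caPI3K hearts (adjusted p = 0.314), 0.55 in dnPI3K hearts (adjusted p = 0.0518) and 0.29 in Ntg hearts (adjusted p = 0.558), each with an SE of 0.18. *Col6a3* rose by 0.42 over the 3 genotypes (SE 0.10, 1.34-fold, adjusted p = 0.00591).

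Of the 7 tested FACITs, *Col12a1*, *Col14a1* and *Col16a1* rose over the genotypes. In caPI3K hearts 1 of the 7 rose, in dnPI3K hearts 3 and in Ntg hearts 2. *Col12a1* encodes a FACIT of tendon and other loaded tissue. In caPI3K hearts *Col12a1* read 8.35, 8.75, 8.15 and 7.98 after MI, against 7.19, 7.18, 7.65 and 7.30 after sham. In dnPI3K hearts *Col12a1* read 9.17, 8.69, 8.12 and 8.97 after MI, against 7.06, 7.29, 7.69 and 7.11 after sham. In Ntg hearts *Col12a1* read 8.94, 8.91, 8.37 and 8.53 after MI, against 6.82, 6.67, 7.02 and 8.42 after sham. Its MI and sham arrays were separate in both transgenic lines. For *Col12a1*, the log2 MI change was 0.98 in caPI3K hearts (adjusted p = 0.103), 1.45 in dnPI3K hearts (adjusted p = 0.00177) and 1.45 in Ntg hearts (adjusted p = 0.0144), each with an SE of 0.29. *Col12a1* rose by 1.29 over the 3 genotypes (SE 0.17, 2.45-fold, adjusted p = 5.89e-06). The second *Col12a1* probe set above the low-signal limit, the dimmer of the pair, moved by 0.46 (SE 0.21) over the genotypes, less than the 1.29 of the one used.

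With all arrays, *Col14a1*, a FACIT that coats growing fibrils, had the largest caPI3K change of the family. Without the caPI3K sham arrays with Y-linked signal, given further on, its caPI3K change was smaller and was below that of *Col8a2*. In caPI3K hearts *Col14a1* read 10.95, 10.74, 10.91 and 10.99 after MI, against 8.67, 8.94, 9.24 and 9.70 after sham. In dnPI3K hearts *Col14a1* read 11.06, 11.39, 11.27 and 11.66 after MI, against 10.25, 10.66, 10.65 and 10.36 after sham. In Ntg hearts *Col14a1* read 11.30, 10.97, 11.11 and 10.91 after MI, against 9.71, 9.98, 9.95 and 10.97 after sham. The 4 caPI3K sham arrays were the lowest of all 24, the highest of them just under the lowest Ntg sham array. Arrays did not overlap in either transgenic line, and Ntg sham replicate 4 reached the Ntg MI range. For *Col14a1*, the log2 MI change was 1.75 in caPI3K hearts (adjusted p = 4.14e-05), 0.86 in dnPI3K hearts (adjusted p = 0.00627) and 0.92 in Ntg hearts (adjusted p = 0.0249), each with an SE of 0.20. *Col14a1* rose by 1.18 over the 3 genotypes (SE 0.12, 2.26-fold, adjusted p = 1.73e-07). The MI levels themselves differed by -0.45 between caPI3K and dnPI3K (95% interval -0.87 to -0.03, adjusted p = 0.254) and by -0.18 between caPI3K and Ntg (95% interval -0.60 to 0.25, adjusted p = 0.999).

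*Col16a1* belongs to the same class and is made by fibroblasts and muscle cells. *Col16a1* values in caPI3K hearts were 8.67, 8.12, 8.38 and 8.36 after MI, against 8.11, 7.69, 7.45 and 7.81 after sham. *Col16a1* values in dnPI3K hearts were 8.995, 8.85, 8.54 and 8.74 after MI, against 7.60, 8.05, 7.93 and 8.02 after sham. *Col16a1* values in Ntg hearts were 8.79, 8.88, 8.43 and 8.57 after MI, against 8.08, 7.11, 7.83 and 8.56 after sham. MI and sham arrays were separate in both transgenic lines, and 1 Ntg sham array, replicate 4, crossed. For *Col16a1*, the log2 MI change was 0.62 in caPI3K hearts (adjusted p = 0.2), 0.88 in dnPI3K hearts (adjusted p = 0.0102) and 0.77 in Ntg hearts (adjusted p = 0.106), each with an SE of 0.22. *Col16a1* rose by 0.75 over the 3 genotypes (SE 0.13, 1.69-fold, adjusted p = 0.000152). The other tested FACITs, *Col9a1*, *Col19a1*, *Col20a1* and *Col22a1*, had changes of -0.19 to 0.58 over the genotypes and adjusted p of 0.236 to 0.958.

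Type VIII collagen is a short-chain collagen that forms hexagonal sheets and is made by vascular cells. Both chains rose, and their changes of 1.25 and 1.39 over the genotypes were the third highest and the highest of the 36. In caPI3K hearts *Col8a1* read 12.14, 12.12, 12.09 and 12.12 after MI, against 11.17, 11.01, 11.39 and 10.92 after sham. In dnPI3K hearts *Col8a1* read 11.87, 12.40, 12.01 and 12.82 after MI, against 10.44, 10.65, 11.03 and 10.69 after sham. In Ntg hearts *Col8a1* read 12.28, 11.92, 11.96 and 11.80 after MI, against 10.27, 10.58, 10.60 and 11.84 after sham. Only Ntg sham replicate 4 stood among infarcted hearts. For *Col8a1*, the log2 MI change was 0.99 in caPI3K hearts (adjusted p = 0.0207), 1.57 in dnPI3K hearts (adjusted p = 0.000108) and 1.17 in Ntg hearts (adjusted p = 0.00825), each with an SE of 0.22. *Col8a1* rose by 1.25 over the 3 genotypes (SE 0.13, 2.37-fold, adjusted p = 2.56e-07). *Col8a2* was dimmer and rose in both transgenic lines. *Col8a2* values in caPI3K hearts were 7.69, 7.80, 7.44 and 6.89 after MI, against 6.40, 5.07, 6.17 and 5.33 after sham. *Col8a2* values in dnPI3K hearts were 7.42, 8.02, 8.04 and 8.14 after MI, against 6.58, 6.55, 6.75 and 5.82 after sham. *Col8a2* values in Ntg hearts were 7.63, 7.91, 7.19 and 7.95 after MI, against 6.38, 6.55, 6.51 and 7.35 after sham. MI and sham arrays of caPI3K and of dnPI3K hearts did not overlap. For *Col8a2*, the log2 MI change was 1.71 in caPI3K hearts (adjusted p = 0.00539), 1.48 in dnPI3K hearts (adjusted p = 0.00374) and 0.97 in Ntg hearts (adjusted p = 0.183), each with an SE of 0.32. *Col8a2* rose by 1.39 over the 3 genotypes (SE 0.19, 2.62-fold, adjusted p = 9.93e-06). All 3 *Col8a1* probe sets rose by 1.02 to 1.25 on average.

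The 250 bases before the *Col8a1* start are shown as those of the called gene with the most GGGCGG matches among the windows printed. They lie on the minus strand at chr16:57754738-57754987 (GRCm38.p6, RefSeq) and are written along that strand, with matches in capitals.
Col8a1: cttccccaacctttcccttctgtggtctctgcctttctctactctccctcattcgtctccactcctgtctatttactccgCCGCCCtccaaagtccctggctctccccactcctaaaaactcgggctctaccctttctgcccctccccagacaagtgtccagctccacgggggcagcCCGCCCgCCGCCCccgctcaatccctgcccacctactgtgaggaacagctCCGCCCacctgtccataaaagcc
All 4 capital stretches are CCGCCC, the reverse complement of GGGCGG, and the nearest begins 23 bases before the start. Neither CCAAT nor TATAAA was found in it.

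Among the remaining classes, *Col15a1* alone rose. It is a multiplexin of the basement membrane zone. In caPI3K hearts *Col15a1* read 9.76, 9.53, 9.68 and 9.74 after MI, against 9.83, 9.19, 9.19 and 9.44 after sham. In dnPI3K hearts *Col15a1* read 9.91, 9.65, 9.32 and 9.48 after MI, against 9.05, 9.14, 8.77 and 9.16 after sham. In Ntg hearts *Col15a1* read 9.10, 9.48, 9.91 and 8.80 after MI, against 9.03, 8.86, 8.57 and 9.43 after sham. The arrays were separate in dnPI3K hearts only. For *Col15a1*, the log2 MI change was 0.27 in caPI3K hearts (adjusted p = 0.651), 0.56 in dnPI3K hearts (adjusted p = 0.0719) and 0.35 in Ntg hearts (adjusted p = 0.508), each with an SE of 0.19. *Col15a1* rose by 0.39 over the 3 genotypes (SE 0.11, 1.31-fold, adjusted p = 0.0187). *Col18a1*, the multiplexin that carries endostatin, gave 0.31 (SE 0.13, adjusted p = 0.133). The transmembrane members *Col13a1*, *Col23a1* and *Col25a1* ranged from -0.24 to -0.15, *Col7a1* of skin anchoring fibrils gave -0.04 and *Col26a1* 0.19, and none of the 5 passed.

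Agreement between probe sets was checked for the 14 members that rose over the genotypes and had at least 2 probe sets above the low-signal limit. In all 14, every such probe set had a positive change. The probe set used was among them and positive by selection, and no share over all genes was taken. Sizes differed both ways, such as 0.46 against 1.29 in the set used for *Col12a1*. They were 0.44 against 0.67 for *Col4a1* and 1.68 against 1.07 for *Col11a1*.

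**Figure D4:**
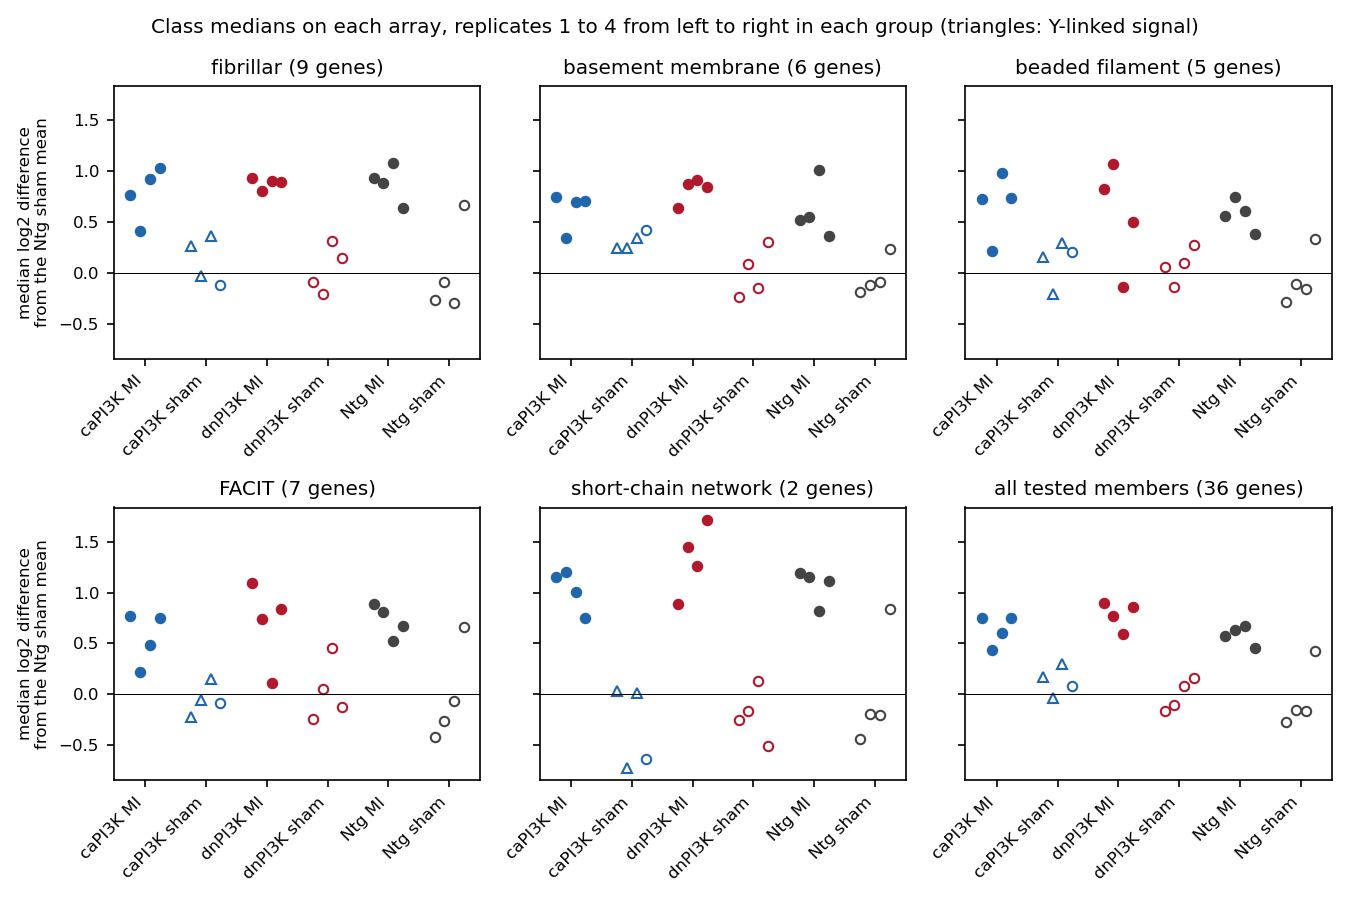
Median over the tested genes of a class of the log2 difference from the Ntg sham mean (y axis) on each array, by group (x axis), replicates 1 to 4 from left to right. Filled points are MI, open points sham, and triangles carry Y-linked signal. Over all 36 genes the MI arrays lie at 0.44 to 0.90, while 11 of the 12 sham arrays lie at -0.27 to 0.30 and Ntg sham replicate 4 at 0.43.

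Next, the infarct response was compared between genotypes. No collagen passed in any of the 3 differences of MI effects (0% of all tested genes passed in each). For caPI3K minus dnPI3K the smallest adjusted p was 0.245, for caPI3K minus Ntg 0.841 and for dnPI3K minus Ntg 0.52. At an unadjusted p below 0.05 there were 6, 2 and 1 of the 36 in that order, against 10.2%, 5.53% and 7.6% of all tested genes. With all arrays, *Col14a1* had a larger MI change in caPI3K than in dnPI3K hearts by 0.89 (95% interval 0.29 to 1.49). It was larger than in Ntg hearts by 0.84 (0.24 to 1.43), and neither passed. Both differences used the caPI3K sham arrays with Y-linked signal, without which the caPI3K change was smaller. *Col4a2* differed the other way, by -0.63 between caPI3K and dnPI3K hearts (95% interval -1.17 to -0.09, adjusted p = 0.39). For *Col1a2* the 3 differences were -0.34 (-0.93 to 0.26) for caPI3K minus dnPI3K, -0.16 (-0.75 to 0.44) for caPI3K minus Ntg and 0.18 (-0.42 to 0.77) for dnPI3K minus Ntg.

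In 15 of the 20 collagens that rose over the genotypes, the MI change was highest in dnPI3K, then Ntg, then caPI3K hearts. Among all 1006 genes that rose over the genotypes, 32.4% had this order. The count was 14 of 20 without dnPI3K MI replicate 1, and it depends on which sham arrays are kept. Without Ntg sham replicate 4 it was 8 of 20, and another 8 had Ntg above dnPI3K above caPI3K. Without the sham arrays numbered 415 to 418 it was 4 of 18, and 9 of the 18 had dnPI3K above caPI3K above Ntg. Without the caPI3K sham arrays with Y-linked signal it was 10 of 17. Likewise the 8 collagens called in dnPI3K hearts alone do not show a difference between genotypes, since the differences were tested and did not pass.

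The Ntg count of 8 depended on single sham arrays and on the fit. Without Ntg sham replicate 4, 16 collagens rose in Ntg hearts (2.84% of all tested genes), including the 8 called with all arrays, and 15 of the 16 were among the 17 called in dnPI3K hearts with all arrays. *Col1a1* then rose by 1.69 (adjusted p = 0.000799), *Col4a2* by 0.94 (adjusted p = 0.000354) and *Col8a2* by 1.19 (adjusted p = 0.0413). In caPI3K hearts the count became 10 and in dnPI3K hearts 19, through the spread shared by all groups. In the opposite direction, leaving out Ntg sham replicate 1 left 1 collagen, and leaving out the sham arrays numbered 415 to 418, which are Ntg sham replicates 1 and 2 and dnPI3K sham replicates 1 and 2, left 0 (0.061% of all tested genes rose). The smallest adjusted p was then 0.455 and 16 collagens had an unadjusted p below 0.05. With the fit on the compared groups alone the Ntg count was also 0.

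Sham hearts were compared next, for the effect of the transgenes without infarction. *Col14a1* was lower in caPI3K sham than in both other sham groups, *Col27a1* was lower and *Col4a1* and *Col4a2* were higher in caPI3K sham than in dnPI3K sham. In caPI3K against Ntg sham hearts 0 collagens were higher (0.115% of all tested genes) and 1 was lower (0.163%). Without Ntg sham replicate 4, 5 were higher (*Col5a1*, *Col4a1*, *Col4a2*, *Col6a2* and *Col8a1*, 1.42% of all tested genes) and 1 lower (*Col14a1*, 1.38%), and without any 1 of caPI3K sham replicates 1, 2 and 3 none passed. In caPI3K against dnPI3K sham hearts 2 were higher (5.38%) and 2 were lower (4.52%), shares near the background. Without dnPI3K sham replicate 1, or without caPI3K sham replicate 3, these 4 became 1. Without dnPI3K sham replicate 2 or 3, or caPI3K sham replicate 1, 2 or 4, they became 2. In dnPI3K against Ntg sham hearts none was higher (0.42%) or lower (0.725%), and 0 of 36 had an unadjusted p below 0.05 (10.8% of all tested genes). Arrays did not overlap for 0 collagens higher and 1 lower in caPI3K against Ntg sham (2.95% and 2.67% of all tested genes), for 4 higher and 2 lower in caPI3K against dnPI3K sham (8.79% and 7.97%) and for 0 and 0 in dnPI3K against Ntg sham (2.63% and 2.97%). The per-array values are those given above, and for *Col27a1* they were 8.16, 7.74, 6.45 and 8.32 in caPI3K sham, 8.87, 8.40, 8.38 and 8.49 in dnPI3K sham and 8.20, 8.73, 8.97 and 8.55 in Ntg sham. One caPI3K array, replicate 3, was far below the others for this gene.

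*Col14a1* was -1.01 against Ntg sham (SE 0.20, 0.496-fold, adjusted p = 0.0229) and -1.34 against dnPI3K sham (SE 0.20, 0.395-fold, adjusted p = 5.24e-05). All 4 caPI3K sham arrays lay below all arrays of both other sham groups, and the second brightest probe set gave -1.51 against dnPI3K sham. *Col27a1* was -0.87 against dnPI3K sham (SE 0.25, adjusted p = 0.0277), but its second probe set gave 0.21 (SE 0.22). Without caPI3K sham replicate 3 the *Col27a1* difference was -0.46 (adjusted p = 0.118). For *Col4a1* the difference was 0.54 (SE 0.16, adjusted p = 0.029) and for *Col4a2* 0.58 (SE 0.18, adjusted p = 0.0426), with no overlap of arrays. The second *Col4a1* probe set gave a smaller difference, 0.31 (SE 0.17).

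**Figure D5:**
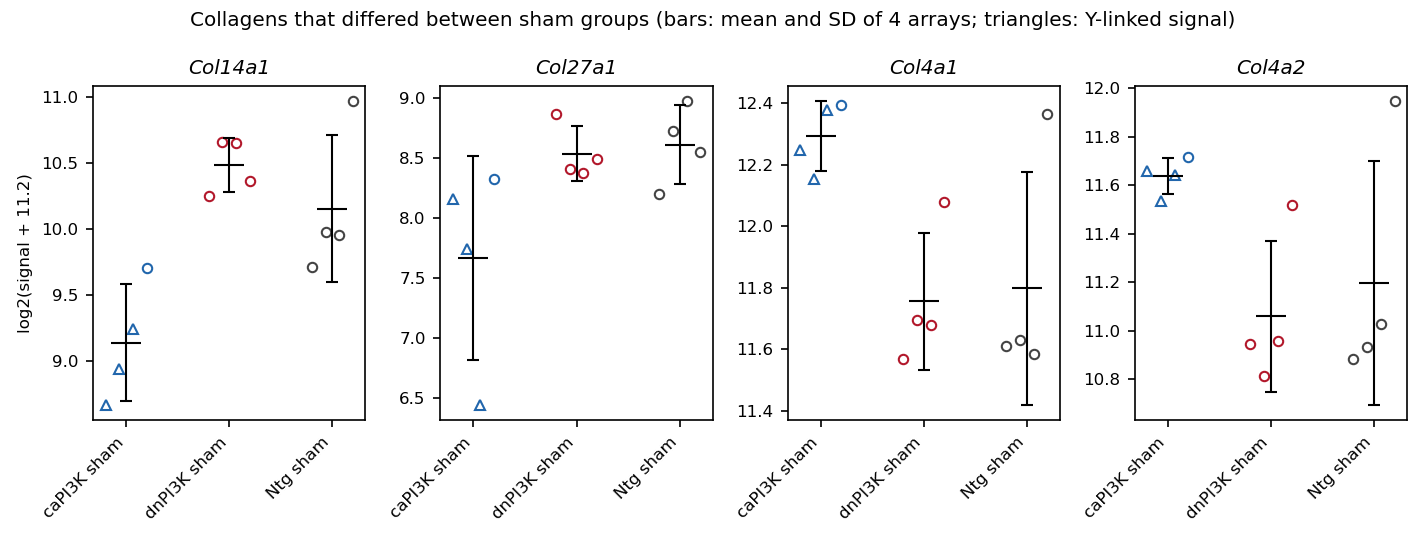
Log2(signal + 11.2) (y axis) of the 4 collagen genes that differed between sham groups, on each sham array (x axis, groups). Bars are the mean and SD of 4 arrays, and triangles mark the 3 caPI3K sham arrays with Y-linked signal. For *Col14a1* the 3 triangles lie at 8.67 to 9.24 and the fourth caPI3K array at 9.70.

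The caPI3K sham results were also taken without the arrays that carried Y-linked signal. The 3 caPI3K sham arrays that carried it read 8.67 to 9.24 for *Col14a1*, and the fourth read 9.70, against 9.71 or more in Ntg sham. With that single array as the caPI3K sham group, assumed to vary like the other groups, *Col14a1* was -0.45 against Ntg sham (adjusted p = 0.912) and -0.78 against dnPI3K sham (adjusted p = 0.22). *Col27a1* was -0.21 against dnPI3K sham and did not pass. For *Col4a1* and *Col4a2* the differences from dnPI3K sham were no smaller, at 0.64 and 0.66, with adjusted p of 0.296 and 0.391 in a group of 1 array. No caPI3K MI call passed in that setting either, with changes of 0.68 for *Col6a1*, 1.20 for *Col5a2*, 1.20 for *Col8a1*, 1.19 for *Col14a1* and 2.12 for *Col8a2*. *Col4a1* was 12.15 to 12.38 on the 3 arrays and 12.39 on the fourth, and *Col4a2* was 11.53 to 11.66 and 11.71. Sex and genotype cannot be told apart in 3 of the 4 caPI3K sham arrays. No caPI3K MI array carried Y-linked signal, so in the caPI3K MI changes sex and infarction cannot be told apart on these arrays either. The same limit holds for the differences of MI effects that use caPI3K and, in part, for changes over the 3 genotypes.

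After infarction no collagen passed the test between genotypes with the brightest probe sets and all arrays in 1 fit, while in caPI3K MI against dnPI3K MI 1 passed with the mean of probe sets and 2 with the fit on the compared groups alone. In caPI3K MI against dnPI3K MI 0 were higher (2.92% of all tested genes) and 0 lower (1.31%), in caPI3K MI against Ntg MI 0 and 0 (0% each), and in dnPI3K MI against Ntg MI 0 and 0 (0.657% and 1.93%). The smallest adjusted p were 0.099, 0.999 and 0.151, and 4, 0 and 3 of the 36 had an unadjusted p below 0.05, against 16.1%, 4.63% and 15.2% of all tested genes. The type I chain *Col1a2* differed by -0.29 (95% interval -0.71 to 0.13), -0.01 (-0.43 to 0.42) and 0.28 (-0.14 to 0.70) in the same order. Arrays did not overlap for 0 collagens higher and 3 lower in caPI3K against dnPI3K MI (5.69% and 4.33% of all tested genes), 0 and 1 in caPI3K against Ntg MI (1.88% and 1.74%), and 2 and 0 in dnPI3K against Ntg MI (3.35% and 4.59%).

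Collagen chains are hydroxylated, folded, trimmed and crosslinked with the help of enzymes and other proteins. Of 28 tested genes listed for collagen synthesis and processing, not all of them enzymes, 16 rose over the genotypes (6.81% of all tested genes). *P3h4* fell and 11 did not pass. In caPI3K hearts 5 rose (0.853% of all tested genes), in dnPI3K hearts 11 (4.19%) and in Ntg hearts 6 (0.677%). Their median change over the genotypes was 0.27. *Lox*, the crosslinking enzyme lysyl oxidase, rose over the genotypes by 1.30 (SE 0.14, adjusted p = 5.87e-07), and its relative *Loxl1* by 0.93 (SE 0.11, adjusted p = 9.78e-07). *Pcolce2* and *Pcolce*, enhancers of procollagen trimming, rose by 0.75 (SE 0.07, adjusted p = 1.14e-07) and 0.69 (SE 0.08, adjusted p = 1.63e-06). *Serpinh1*, the collagen chaperone HSP47, rose by 0.32 (SE 0.06, adjusted p = 0.000622). The prolyl hydroxylase subunit gene *P4ha1* rose by 0.30 (SE 0.09, adjusted p = 0.0163) and the lysyl hydroxylase gene *Plod2* by 0.32 (SE 0.06, adjusted p = 0.000373). *P3h4*, which acts with a lysyl hydroxylase, changed by -0.26 (SE 0.08, adjusted p = 0.0247).

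Some of these genes also differed between genotypes. In caPI3K MI against dnPI3K MI 2 of the 28, *P4ha2* and *Creb3l1*, were higher (2.92% of all tested genes) and 4, *P4hb*, *P3h2*, *Pcolce2* and *Lox*, were lower (1.31%). *P4ha2*, a prolyl hydroxylase subunit gene, was higher by 0.42 (SE 0.12, adjusted p = 0.0412). *Lox* was lower in caPI3K MI than in dnPI3K MI, with a log2 difference of -0.91 (SE 0.25, adjusted p = 0.0298), and so was *Pcolce2*, at -0.62 (SE 0.12, adjusted p = 0.00324). In dnPI3K MI against Ntg MI 1 of the 28, *P3h2*, was higher (0.657%) and 0 were lower (1.93%). In caPI3K against dnPI3K sham hearts 3 of the 28 were higher, *P4ha1*, *P4ha2* and *Serpinh1* (5.38% of all tested genes). Another 4 were lower, *P4hb*, *Ppib*, *Fkbp7* and *Pcolce2* (4.52%). Against Ntg sham 0 were higher (0.115%) and 1, *Pcolce2*, was lower (0.163%). *Pcolce2* differed in caPI3K sham by -0.86 (SE 0.12, adjusted p = 3.18e-05) against dnPI3K and -0.60 (SE 0.12, adjusted p = 0.0284) against Ntg. *P4ha2* was higher in caPI3K sham than in dnPI3K sham by 0.82 (SE 0.12, adjusted p = 3.59e-05). Of the 9 tested collagen receptor genes, 0 passed in caPI3K hearts, 3 rose in dnPI3K hearts (4.19% of all tested genes) and 0 passed in Ntg hearts. Over the genotypes *Itga1*, *Itga10*, *Itgb1*, *Ddr1* and *Ddr2* rose, integrin chains and discoidin receptors that bind collagen, by 0.19 for *Itgb1* to 0.82 for *Itga10* (6.81% of all tested genes rose). These 5 became 2 without the sham arrays numbered 415 to 418 and 0 without the Y-linked arrays.

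Markers of fibroblasts, the cells that make most collagen, also rose in part. Of 8 activated fibroblast markers, 3 rose in caPI3K (0.853% of all tested genes), 6 in dnPI3K (4.19%) and 4 in Ntg hearts (0.677%), and their summed signal was 27783 to 31227 in caPI3K MI and 16859 to 22124 in caPI3K sham. The sum was 31929 to 47563 in dnPI3K MI and 18139 to 21886 in dnPI3K sham, and 29462 to 34292 in Ntg MI and 15424 to 26676 in Ntg sham. Of 10 fibroblast markers 4, 3 and 3 rose in the same order of genotypes, with sums of 111822 to 129485 in caPI3K MI and 93425 to 102737 in caPI3K sham, 127186 to 151633 and 108446 to 125899 in dnPI3K hearts, and 114787 to 127036 and 94809 to 129884 in Ntg hearts. Of 10 heart muscle markers 0 fell in caPI3K, 3 in dnPI3K and 0 in Ntg hearts (0.257%, 5.18% and 0.0948% of all tested genes). Over the genotypes 9 of these 10 fell (6.76%), with a median change of -0.19, and 4 of 10 macrophage markers rose (6.81%). Among 10 endothelial markers *Fabp4* fell, and among 9 mural markers 2 rose and 1 fell. Of 6 epicardial and mesothelial markers 1 rose, of 4 adipocyte and 4 Schwann cell markers 0 passed, and of 5 chondrocyte markers *Sox9* and *Comp* rose. No marker had a signal of 0 on any array. The part of cell composition in the collagen changes was not tested, and in whole hearts more cells of a type and more RNA per cell cannot be told apart.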

How the data were processed

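RNA of 24 mouse hearts in 6 groups of 4 was measured on Affymetrix arrays. The authors deposited a MAS5 signal intensity for each of 45101 probe sets, and MAS5 is named per the submitters' processing notes, with the version not given in the sources used here. On each array the trimmed mean of the deposited intensity (2% off each end) was 500.00, and the number of arrays limits the precision. Of the probe sets 34945 named 1 gene, 932 several and 9160 none, and 64 controls were left out. Gene names are those of the platform annotation, and 34741 gene IDs were found in the RefSeq list of GRCm38.p6.

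From the deposited intensity, log2(signal + 11.2) was computed here, with a pseudocount set from the median signal, 1 probe set was kept per gene (brightest over 24 arrays), and genes above the 40th percentile of an array on at least 4 arrays were tested. limma 3.58.1 (R 4.3.3) fitted 6 group means with 18 residual degrees of freedom and a mean-variance trend. Within-array differences had exact permutation tests. The fit was tested on simulated data. Members, classes, the lists of pathway and marker genes and the rule for named genes were chosen with earlier results of these data known. Values array by array are given for each member called in any of the comparisons. Alternatives were quantile normalization, a pseudocount of 1, no filter, the mean of probe sets and a fit on the compared groups alone. Others were a term for numbers under 1000 in the sample titles, and leaving out arrays.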

Additional observations from a re-analysis of the deposited data

Results flagged for a closer look

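The highest or lowest of 4 arrays was set against the other 3 for 21 collagens in 6 groups, 126 tests in all, by Dixon's gap ratio. In 10 of them 1 array stood apart, where chance flags about 1 in 20 groups. The 21 collagens share the same arrays, so the 126 tests are not independent. Whether 10 exceeds chance was not tested.

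Ntg sham replicate 4 was high for 5 genes. It read 13.06 for *Col1a2* (others 11.74 to 11.91), 11.18 for *Col5a1* (10.25 to 10.33) and 12.37 for *Col4a1* (11.59 to 11.63). It read 11.95 for *Col4a2* (10.88 to 11.03) and 12.17 for *Col6a2* (others up to 11.19). Ntg sham replicate 1 was high for *Col11a1*, at 7.405 (6.145 to 6.358).

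In the transgenic lines the arrays that stood apart were low. In caPI3K sham, replicate 1 read 6.211 for *Col4a3* (7.202 to 7.361) and replicate 2 read 11.35 for *Col6a2* (11.83 to 11.91), both arrays with Y-linked signal. In dnPI3K MI, replicate 3 read 9.884 for *Col6a3* (10.48 to 10.58) and replicate 1, the array with the highest median signal, read 7.423 for *Col8a2* (8.019 to 8.136). The causes were not tested.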

How the results depend on the processing

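The rise of collagens over the 3 genotypes, with 20 called, kept within 1.5 times under every alternative run, and so did the 17 of dnPI3K hearts. No named gene's change reversed. The 0 called in each difference of MI effects stayed 0 without each array in turn. Other counts moved. With the mean of probe sets, receptor calls were 1 in dnPI3K hearts and 3 over the genotypes, and collagen calls were 0 for caPI3K against Ntg sham, 1 for caPI3K against dnPI3K sham and 1 for caPI3K MI against dnPI3K MI. Fitted on the compared groups alone, collagens numbered 11 in caPI3K and 0 in Ntg hearts, synthesis genes 0 in Ntg hearts, and collagens 0 for caPI3K against Ntg sham and 2 for caPI3K MI against dnPI3K MI. Without sham arrays 415 to 418, collagens numbered 8 in caPI3K and 0 in Ntg hearts and 1 for caPI3K against dnPI3K sham, synthesis genes 7 in dnPI3K and 0 in Ntg hearts, and receptors 1 in dnPI3K hearts and 2 over the genotypes. With the term for title numbers, caPI3K hearts had 8 collagens and 1 synthesis gene, and caPI3K against dnPI3K sham had 2 collagens. Without the Y-linked arrays, caPI3K hearts had 0 collagens and 0 synthesis genes, receptors were 0 over the genotypes, and both caPI3K sham comparisons had 0 collagens.

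Leaving out 1 array at a time gave 3 to 10 collagens in caPI3K hearts and 1 to 16 in Ntg hearts, 1 to 7 synthesis genes in caPI3K and 0 to 10 in Ntg hearts, and 3 to 5 receptors over the genotypes. It gave 0 to 6 collagens for caPI3K against Ntg sham and 1 to 4 for caPI3K against dnPI3K sham. The highest Ntg values came without sham replicate 4.

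Chain differences near 0 changed sign. *Col1a1* minus *Col3a1* was -0.0169 in caPI3K and -0.125 in dnPI3K hearts after quantile normalization, -0.16 and -0.0018 with the mean of probe sets, and -0.0618 in dnPI3K hearts without arrays 415 to 418. With the mean of probe sets *Col1a1* minus *Col1a2* was -0.0095 in caPI3K hearts and *Col4a1* minus *Col4a2* -0.18 in Ntg hearts, and without arrays 415 to 418 they were -0.0788 and 0.00988 in dnPI3K hearts. Without 1 array at a time, *Col1a1* minus *Col1a2* ranged from -0.0083 to 0.49 in Ntg hearts. *Col1a1* minus *Col3a1* ranged from -0.11 to 0.14 in caPI3K, -0.14 to 0.18 in dnPI3K and -0.16 to 0.36 in Ntg hearts, and *Col4a1* minus *Col4a2* from -0.115 to 0.0161 in dnPI3K and -0.0496 to 0.0539 in Ntg hearts. The causes were not tested. Dim probe sets limit what could be measured. No paired analysis was possible because the sample titles end in a number of unstated meaning and give no replicate numbers that groups share.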
